A study of Oryza sativa Indica Group with 8 samples.

Results

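In rice roots, 89 of 17905 genes measured by a probe set of their own changed in opposite directions in the cultivars Nootripathu and IR20 when water was withheld. Of these, 65 were higher in stressed than in control roots of Nootripathu and lower in stressed than in control roots of IR20, and 24 were lower in Nootripathu and higher in IR20. The members were chosen on the deposited array signals, which are on a log2 scale, so a difference of 1 is a doubling of signal. A gene was taken where the mean of the stressed arrays exceeded the mean of the control arrays by at least 1 in one cultivar and fell short of it by at least 1 in the other, and where both stressed arrays lay outside the range of both control arrays in each cultivar. Probe sets paired with no gene or with several genes were left out, as were genes whose names begin with NRT, ALN, ABA8OX, MCM, CSL, IAA, PP2C, CYP76M or PDC. The last step removed 6 genes that met the values, namely ALN, MCM3, MCM5 and PDC1 in the first direction and ABA8OX2 and PP2C61 in the second.

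Nootripathu is described in the labels as a deep-rooted landrace that tolerates drought, and IR20 as a shallow-rooted, semi-dwarf cultivar that is susceptible to it, both of the indica group. The 4 groups of 2 arrays each were stressed Nootripathu roots, watered (control) Nootripathu roots, stressed IR20 roots and watered IR20 roots. Single plants grew in PVC pipes of 1 m in a greenhouse, watering stopped at 40 days after sowing, and roots were taken once leaf rolling and drying showed enough stress. Control roots were washed free of soil and stressed roots were only tapped, so the handling moved with the treatment in both cultivars and the effects of the treatment and of the handling cannot be told apart. The replicates are called biological in the labels, and nothing more is said of pooling.

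A root under water deficit slows growth in some zones and keeps it in others, and it remodels its conducting tissue, so genes for wall synthesis, cell division and hormone supply are among those that are read in drought experiments. The walls of xylem vessels and fibres are laid down in layers after a cell has stopped growing, from cellulose made by a dedicated set of cellulose synthases and from xylan made by glycosyltransferases. Cells that divide copy their DNA with a helicase loaded at origins and with replication protein A, which coats the single strands that the helicase opens. Cultivars that differ in rooting depth can differ in all of these before any stress, and an array on whole roots reports the mixture.

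One array stood apart from the rest. On the second stressed IR20 array, the 3′ probe sets of the poly-A spike-in transcripts, RNAs added before labelling, exceeded their 5′ probe sets by 5.32 on the log2 scale, against 2.08 to 2.58 on the other 7 arrays. In 58 of the 65 genes that were higher in Nootripathu and lower in IR20 (89.2%), that array gave a higher signal than the first stressed IR20 array, and therefore lay nearer to the watered level. Among all 3506 probe sets of 1 gene that were lower in stressed IR20 roots by the same rule, the share was 72.5%. Among the 89 genes, leaving it out moved the IR20 difference by over 1.5 times in DCL2A and LOC4329181 alone, and their values without it are given below, as are the counts of members and of the cell wall and cell division lists. Silicon transporter Lsi1, a marker of rice root, was among the brightest probe sets on every array, from 13.4 to 14.5. All 4 genes of the root marker list were lower under stress. The differences were -1.04 in Nootripathu and -0.78 in IR20 for Lsi1, and -3.54 and -7.00 for Lsi2. For BHLH003 they were -4.21 and -3.35, and for CASP1 -1.38 and -2.32. BHLH003 entered the list through another of its names, and whether it marks root tissue was not checked. The part of these genes in the members' values was not tested. The 9 genes of the seed storage list had a median percentile of signal of 24.3, with a range from 1.8 to 81.7. The 6 genes of the photosynthetic tissue list had a median of 59.5. The spike-in signal itself was higher under stress, by 0.89 in Nootripathu and by 0.61 in IR20. Scaling to it brought the median difference of all probe sets to -0.89 in Nootripathu and -0.51 in IR20, and after that scaling 11 of the 65 and 10 of the 24 genes still met the rule. The median differences of the members were then 0.43 in Nootripathu and -2.19 in IR20 for the first direction, and -2.53 and 0.82 for the second.

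Opposite changes of this size were rare. Before the exclusion by name, 73 of 22436 probe sets with 1 gene met the rule with Nootripathu higher and IR20 lower, which is 0.325%, and 26 met it with Nootripathu lower and IR20 higher, which is 0.116%. By the same size and overlap rule in each cultivar alone, 10.3% of probe sets were higher and 10.4% lower in Nootripathu, and 10.8% were higher and 15.6% lower in IR20. Changes that ran the same way were more common, since 5.97% of probe sets were higher in both cultivars and 7.37% were lower in both. Those higher in both made up 57.9% of the probe sets higher in Nootripathu and 55.1% of those higher in IR20. Those lower in both made up 70.8% of the probe sets lower in Nootripathu and 47.2% of those lower in IR20. The first opposite set made up 3.16% of the probe sets that were higher in Nootripathu and 2.08% of those that were lower in IR20. For the second set the shares were 1.11% of the probe sets lower in Nootripathu and 1.07% of those higher in IR20. A further 23 and 15 probe sets met the values without a gene in the annotation and are not described.

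**Figure D1:**
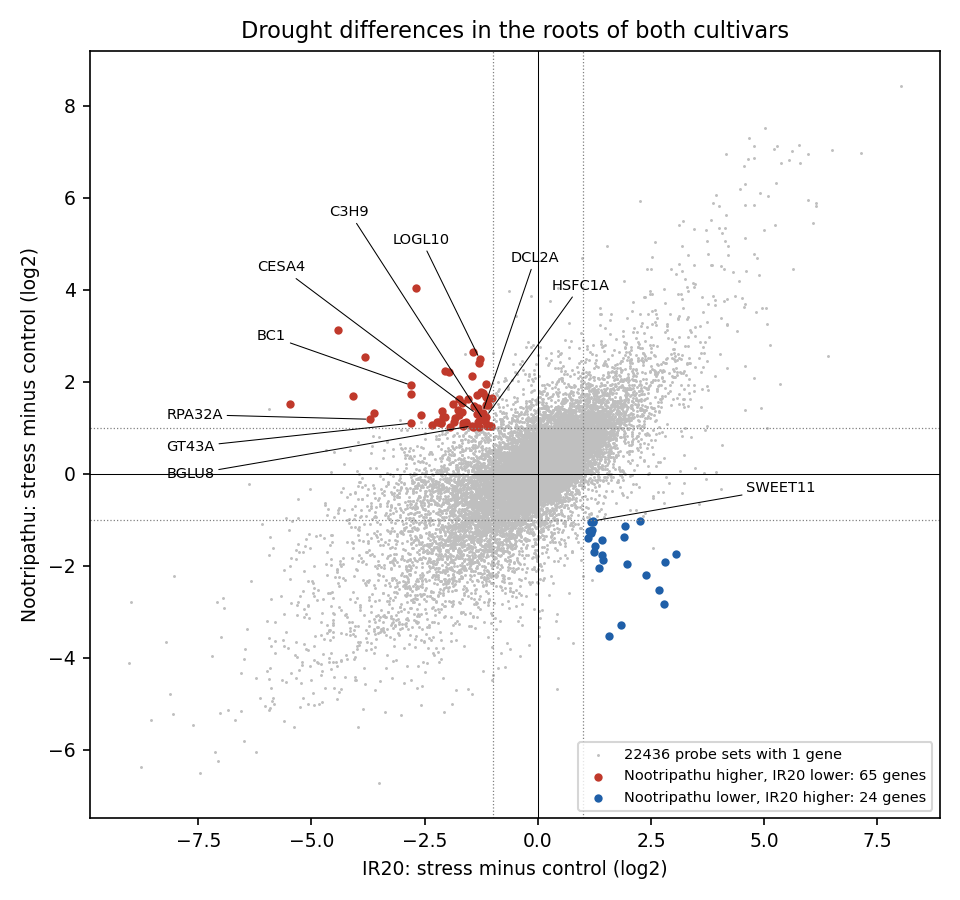
Stress minus control (log2) in Nootripathu (vertical) against IR20 (horizontal) for 22436 probe sets with 1 gene (grey), with the 65 genes higher in Nootripathu and lower in IR20 in red and the 24 genes lower in Nootripathu and higher in IR20 in blue. Dotted lines mark differences of 1 in either direction, and grey points at lower left and upper right are those where both cultivars changed the same way.

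Within the first direction the changes were larger in IR20 for 43 of 65 genes. The median difference was 1.33 in Nootripathu (range 1.02 to 4.04) and -1.58 in IR20 (range -5.47 to -1.02). In the second direction the sizes were more even, with a median of -1.64 in Nootripathu (range -3.53 to -1.02) and 1.42 in IR20 (range 1.11 to 3.06). Changes of at least 2 in both cultivars were found for 4 genes of the first direction and 3 of the second. The median signal of the member probe sets was 7.78 in the first direction and 8.28 in the second, against 8.86 over all genes. The measures differ, since the value over all genes takes each gene's brightest probe set. In the first direction 8 genes, and in the second 3, have a brighter probe set than their member one. All these values come from the arrays that chose the members, so they describe the genes and are no test of them, and the differences below carry a standard error from limma's fit over all 4 groups without a p-value. In whole roots, fewer cells of a type and less RNA per cell cannot be told apart.

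**Figure D2:**
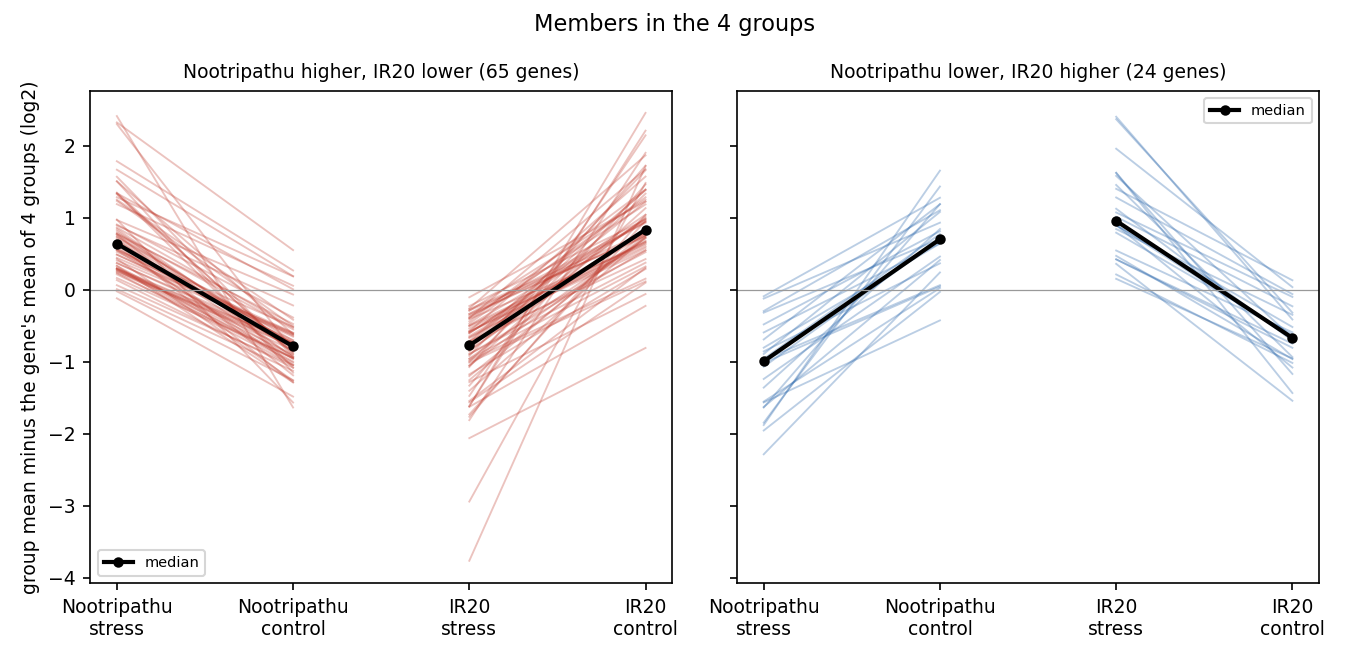
Each line joins the stress and control means of a gene within a cultivar, after subtracting the gene's mean of the 4 groups (log2), for the 65 genes higher in Nootripathu and lower in IR20 (left) and the 24 genes lower in Nootripathu and higher in IR20 (right). Black lines are medians, and the slopes in the left and right parts of each panel run against each other for every gene, as the rule requires.

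Of the 89 genes, 10 carry a name beyond a locus number, 9 of them in the first direction. Of these, BC1 and CESA4 belong to the cell wall list, and GT43A is taken with them although the list does not hold it. BC1 (LOC4333114), the brittle culm protein of the COBRA family that secondary walls need for normal cellulose, had signals of 8.58 and 8.63 in stressed and 6.63 and 6.72 in watered Nootripathu roots. In IR20 it had 6.88 and 6.89 in stressed roots and 9.69 and 9.67 in watered roots. The difference was 1.92 ± 0.09 (SE) in Nootripathu, a 3.79-fold higher signal, and -2.80 ± 0.09 in IR20, a 6.94-fold lower one. Watered IR20 roots were the highest of the 4 groups, stressed Nootripathu roots came next, and the groups left over lay close together at the bottom.

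CESA4 (LOC4324625), a catalytic subunit of the cellulose synthase that builds secondary walls, was brighter. It had 11.63 and 11.71 in stressed and 10.36 and 10.37 in watered Nootripathu roots, and 10.41 and 10.60 in stressed and 11.86 and 11.85 in watered IR20 roots. The differences were 1.30 ± 0.10 in Nootripathu and -1.35 ± 0.10 in IR20. Nootripathu under stress thus approached the level of watered IR20, and IR20 under stress lay slightly above watered Nootripathu. A dimmer probe set of CESA4 that the rule did not take gave 0.69 in Nootripathu and -1.86 in IR20, with the same signs and no overlap between stress and control.

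GT43A (LOC4337665) belongs to the GT43 glycosyltransferases, a family that builds the xylan backbone. Its signals were 8.66 and 8.66 in stressed and 7.50 and 7.62 in watered Nootripathu roots, against 6.91 and 6.78 in stressed and 9.66 and 9.61 in watered IR20 roots. The change was 1.10 ± 0.10 in Nootripathu and -2.79 ± 0.10 in IR20, so the drop in IR20 was the larger. For BC1, CESA4 and GT43A alike, replicates lay within 0.2 of each other in every group.

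The relatives of these genes can be tested, since the rule did not choose them. All 9 CESA genes were measured, and in limma's test of the difference between the drought effects (Nootripathu minus IR20, Benjamini-Hochberg adjusted over 57258 probe sets) 7 of the 8 besides CESA4 passed above 0, and the same number passed without the second stressed IR20 array. That test called 21.2% of all genes higher and 11.8% lower. CESA7 and CESA9, which work with CESA4 in the secondary-wall complex, gained 0.74 ± 0.15 and 0.83 ± 0.12 in Nootripathu and changed by -1.67 ± 0.15 and -0.91 ± 0.12 in IR20, with adjusted p values for the difference of 0.00022 and 0.0004 in limma. CESA1, CESA3, CESA5, CESA6 and CESA8, some of them subunits of the primary-wall complex, had differences of 0.21 to 0.81 in Nootripathu and fell in IR20, with differences of -0.96 to -1.61. In Nootripathu limma did not call CESA3 and CESA8 (adjusted p 0.149 and 0.097). CESA2 was the exception, with -0.06 in Nootripathu and 0.32 in IR20 and an adjusted p of 0.122 in limma for the difference. Among the 7 GT43 genes, GT43A alone changed by at least 1 in opposite directions. GT43C, the rice counterpart of IRX9, had -0.37 in Nootripathu and -1.74 in IR20, and GT43E had 0.17 and -0.57.

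**Figure D3:**
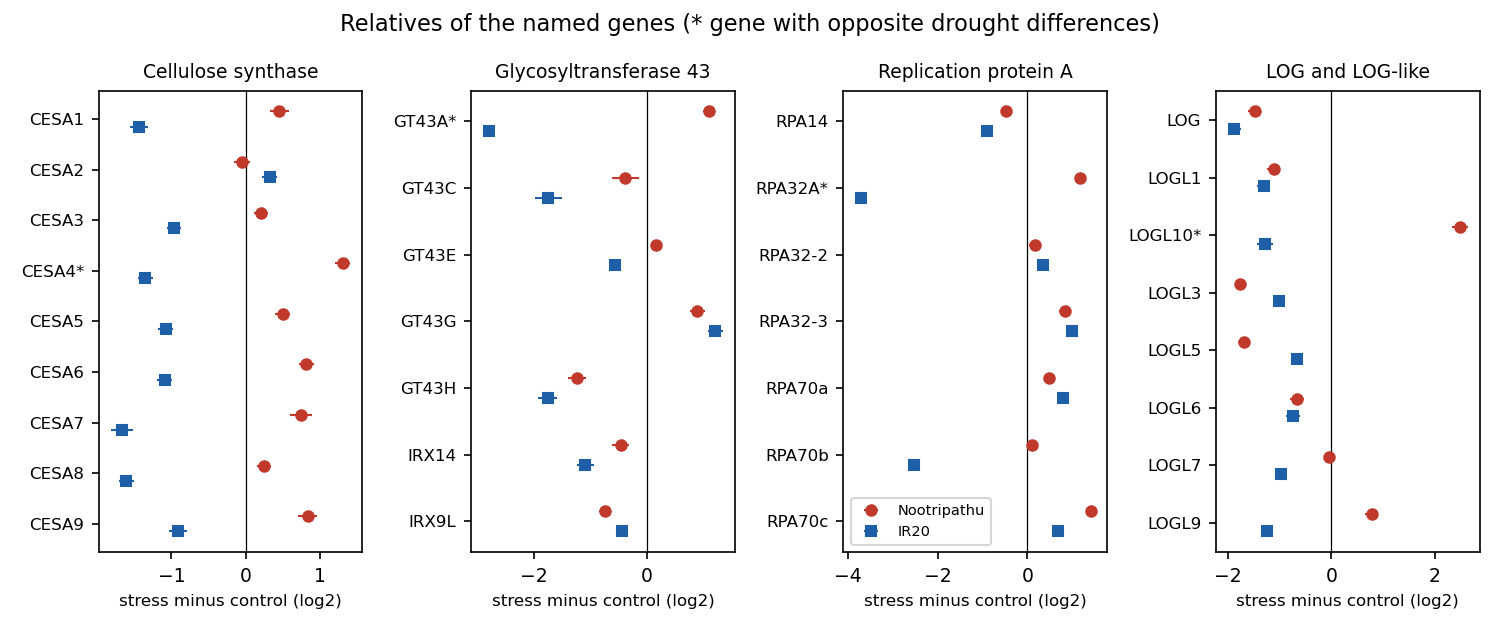
Stress minus control (log2, points with SE bars from limma, 2 arrays per group) in Nootripathu (red circles) and IR20 (blue squares) for the cellulose synthases, the GT43 glycosyltransferases, the subunits of replication protein A and the LOG family. Of the cellulose synthases, 8 of 9 lie to the right of 0 in Nootripathu and to the left in IR20, whereas in the other families the starred gene differs from most of its relatives.

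Over the wider cell wall list, without BC1 and CESA4, 33 of 64 genes passed the test of the difference between the drought effects above 0, 2 passed below 0 and 29 did not pass. Without the second stressed IR20 array, 33 passed above 0 and 3 below. In Nootripathu, 14 genes rose and 26 fell (median -0.18), against a background of 31.1% and 23.2% of all genes. In IR20, 5 rose and 38 fell (median -0.83), against 28.9% and 32.3%. Expansins, which loosen walls during growth, fell in 15 of 29 cases in Nootripathu and 18 of 29 in IR20, 14 of them in both. The list was drawn up by gene name with earlier results of these data known, and the CESA, GT43 and expansin subsets were picked once the members were known. The same holds for the RPA, MCM, LOG, SWEET and beta-glucosidase subsets below.

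Replication protein A was represented by RPA32A (LOC4331236), its middle subunit. The gene had 7.16 and 7.36 in stressed and 5.93 and 6.21 in watered Nootripathu roots, and 4.84 and 4.95 in stressed and 8.62 and 8.60 in watered IR20 roots. That is 1.19 ± 0.13 in Nootripathu and -3.71 ± 0.13 in IR20, a 13.1-fold lower signal and the largest drop in IR20 among the named genes. Among the 7 RPA genes on the array, RPA70b and RPA70c passed limma's test of the difference between the drought effects besides RPA32A, both above 0. Of all genes, 21.2% passed above 0. RPA70b had 0.11 in Nootripathu and -2.52 in IR20 (adjusted p for the difference 3.3e-05 in limma), and RPA70c rose in both, by 1.42 in Nootripathu and 0.69 in IR20. The other two copies of the middle subunit ran the same way in both cultivars, since RPA32-2 had 0.17 in Nootripathu and 0.35 in IR20 and RPA32-3 had 0.84 and 1.00.

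Markers of dividing cells were mostly lower in stressed IR20 roots, as the genes of the first direction were, and moved both ways in Nootripathu. Their median level over 16 genes was 6.90 in stressed and 6.39 in watered Nootripathu roots, and 4.92 in stressed and 8.24 in watered IR20 roots. The median difference per gene was 0.02 in Nootripathu and -2.89 in IR20, or -3.22 in IR20 without the second stressed array. In the wider list of cell division genes without RPA32A, 20 of 37 genes passed the test of the difference between the drought effects above 0, 1 passed below 0 and 16 did not pass. Of all genes, 21.2% passed above 0 and 11.8% below. In Nootripathu 12 of the 37 rose and 8 fell, against 31.1% and 23.2% of all genes. In IR20 6 rose and 21 fell, against 28.9% and 32.3%. Without the second stressed IR20 array, 22 passed above 0 and 1 below. MCM3 and MCM5, subunits of the replication helicase, met the values of the first direction themselves and were left out of the members by name. Both remain among the 16 markers and the 37 genes counted here, where their results follow from the values that the rule used. Of the 8 MCM genes, 5 rose in Nootripathu and 1 fell, with 1.17 for MCM5 and -0.52 for MCM9. CYCB1-1, a B-type cyclin of mitosis, had -0.47 in Nootripathu and -3.40 in IR20. Other cyclins had -0.84 (CYCA2-1), -0.87 (CYCA3-2), -1.52 (CYCB2, LOC4342121) and -0.71 (CYCB2, LOC4336670) in Nootripathu, whereas CYCA1-4 had 0.50. The part that dividing cells have in the members' values was not tested.

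LOGL10 (LOC4348914) belongs to the LONELY GUY family, whose enzymes release active cytokinins from their nucleotides. It had 7.09 and 7.29 in stressed and 4.83 and 4.57 in watered Nootripathu roots. In IR20 the signals were 4.52 and 4.81 in stressed and 5.86 and 6.03 in watered roots. The change was 2.49 ± 0.15 in Nootripathu, a 5.63-fold higher signal and the largest gain among the named genes, and -1.28 ± 0.15 in IR20. Watered Nootripathu and stressed IR20 roots overlapped at low signal.

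Among the other 7 LOG genes, LOGL9 alone passed with opposite signs, at 0.78 in Nootripathu and -1.24 in IR20 (adjusted p for the difference 0.00017 in limma). LOG, LOGL1 and LOGL6 fell in both cultivars, and LOGL3 and LOGL5 fell more in Nootripathu than in IR20, with -1.76 and -1.70 in Nootripathu against -1.01 and -0.67 in IR20. Over the cytokinin list without LOGL10, 6 of 35 genes passed the test of the difference between the drought effects above 0, 7 passed below 0 and 22 did not pass. Of all genes, 21.2% passed it above 0 and 11.8% below. The list was matched by name and also took in HPT1, HPT2 and OPR1, genes of other pathways, all among the 22.

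HSFC1A (LOC4326685), a class C heat shock factor, had 7.72 and 7.08 in stressed and 5.99 and 6.32 in watered Nootripathu roots, against 5.82 and 6.01 in stressed and 6.86 and 7.26 in watered IR20 roots. Its differences were 1.24 ± 0.23 in Nootripathu and -1.14 ± 0.23 in IR20. Of the other 44 genes of the heat shock list, 25 rose in Nootripathu and 26 in IR20, against 31.1% and 28.9% of all genes, and 22 rose in both. Leaving out the first stressed Nootripathu array or the second watered IR20 array took HSFC1A out of the set.

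C3H9 (LOC4325916), which encodes a CCCH zinc finger protein, had 6.60 and 6.62 in stressed and 5.50 and 5.40 in watered Nootripathu roots, and 5.93 and 6.42 in stressed and 7.30 and 7.44 in watered IR20 roots. The differences were 1.17 ± 0.16 in Nootripathu and -1.20 ± 0.16 in IR20. Leaving out the first stressed IR20 array took C3H9 out of the set, with a difference of -0.95 in IR20. BGLU8 (LOC4333842), a beta-glucosidase of a family that splits glucosides of hormones and phenolics, had 8.25 and 8.50 in stressed and 7.27 and 7.39 in watered Nootripathu roots, and 6.99 and 7.58 in stressed and 8.83 and 8.64 in watered IR20 roots. That is 1.04 ± 0.19 in Nootripathu and -1.45 ± 0.19 in IR20. Leaving out the first watered or the second stressed Nootripathu array took BGLU8 out of the set. Of the 27 beta-glucosidases, 7 passed the test of the difference between the drought effects above 0 and 5 below 0, against 21.2% and 11.8% of all genes.

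DCL2A (LOC4333337), a Dicer-like enzyme that cuts double-stranded RNA into small RNAs, was the least certain of the named genes. Its member probe set gave 8.62 and 8.25 in stressed and 7.54 and 6.67 in watered Nootripathu roots, and 6.51 and 5.12 in stressed and 7.18 and 6.90 in watered IR20 roots. The differences of 1.33 ± 0.44 and -1.22 ± 0.44 rest on replicates that lay far apart in stressed IR20 and in watered Nootripathu roots, and limma called neither of them. Without the second stressed IR20 array the difference in IR20 was -0.53. The other probe set of DCL2A was far brighter, with a mean signal of 12.2, and gave 1.43 in Nootripathu and 0.08 in IR20. The gain in Nootripathu was therefore seen by both probe sets and the drop in IR20 by the dimmer one alone.

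**Figure D4:**
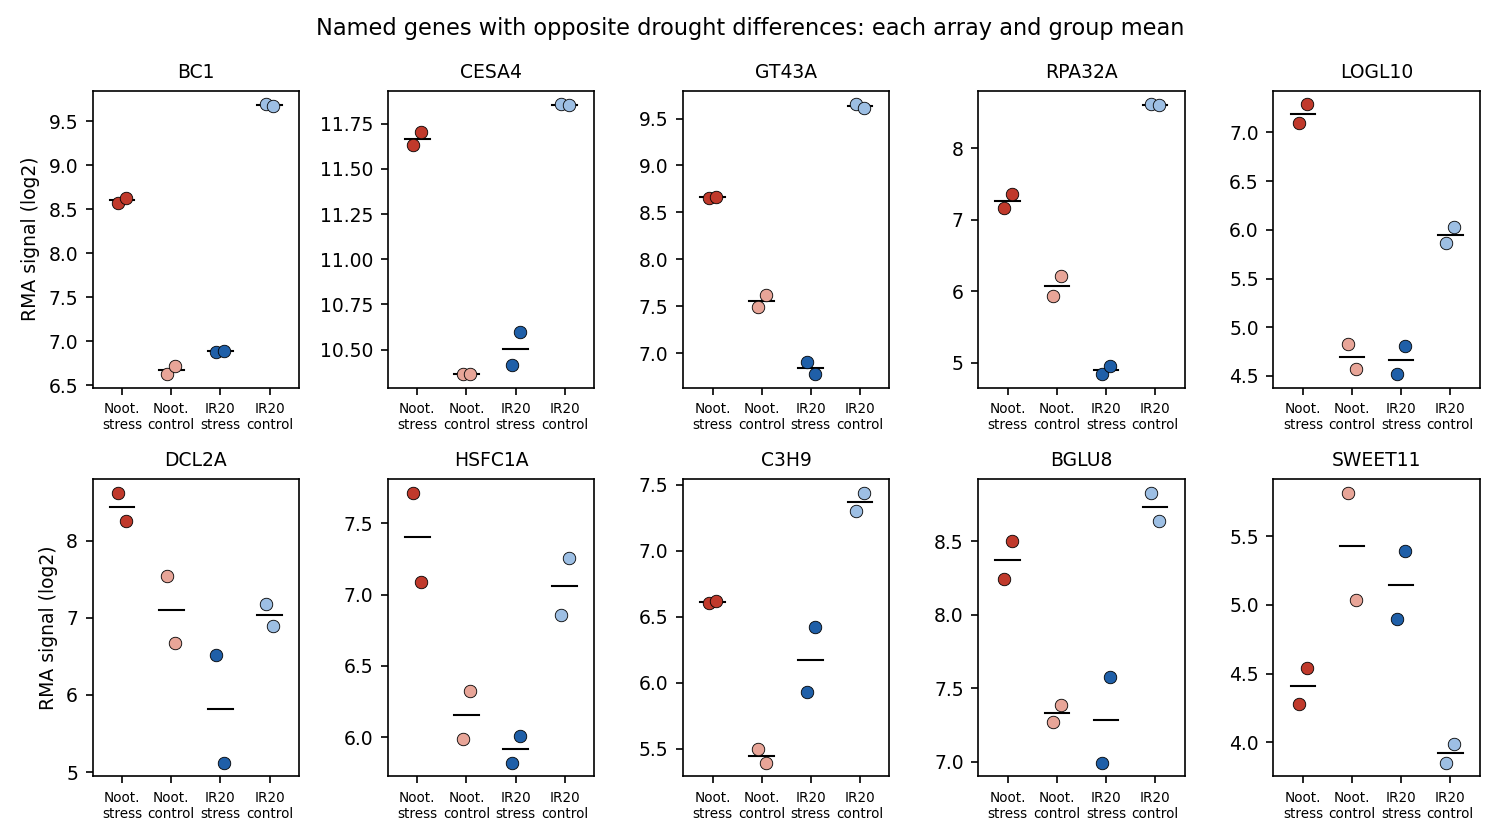
RMA signal (log2) of the 10 named genes on each array (points, 2 per group) with group means (bars), in stressed and control roots of Nootripathu (red) and of IR20 (blue), each panel with its own scale. In the first 9 panels the stressed Nootripathu roots lie above their controls and the stressed IR20 roots below theirs, and SWEET11 runs the other way at low signal.

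The strongest opposite changes belong to genes known only by locus number. LOC4337229 had 11.50 and 11.58 in stressed and 8.42 and 8.40 in watered Nootripathu roots. In IR20 it had 6.17 and 6.44 in stressed and 10.82 and 10.63 in watered roots. Its differences of 3.13 ± 0.12 and -4.42 ± 0.12 amount to an 8.78-fold higher signal in Nootripathu and a 21.4-fold lower one in IR20, and a second member probe set of the gene gave 2.61 and -1.60. LOC4337229 was also the one member with another within 10 genes, among the 88 members placed on a chromosome: LOC4337235, with 8 protein-coding genes between them, changed by 1.48 in Nootripathu and -1.40 in IR20.

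LOC4332321 had the largest gain in Nootripathu of the whole set, with 11.54 and 11.73 in stressed and 7.44 and 7.74 in watered roots, a 16.5-fold higher signal. In IR20 it had 7.23 and 7.76 in stressed and 10.12 and 10.25 in watered roots. LOC4328929 had 7.15 and 7.35 in stressed and 4.71 and 4.71 in watered Nootripathu roots, and 4.57 and 4.75 in stressed and 8.40 and 8.56 in watered IR20 roots, so it was dim both in watered Nootripathu and in stressed IR20. LOC4339187 had 11.16 and 11.13 in stressed and 9.64 and 9.62 in watered Nootripathu roots (1.52 ± 0.14). In IR20 it had the largest drop of the set, to 5.41 and 5.80 in stressed roots against 11.002 and 11.154 in watered ones (-5.47 ± 0.14). In LOC4339187 the stressed cultivars differed by 5.54, the widest gap of the set, and the watered ones by -1.45.

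Other members of the first direction ranked by the smaller of their changes were LOC4336031 (2.24 in Nootripathu and -2.06 in IR20), LOC4336730 (2.20 and -1.95), LOC4338117 (1.74 and -2.80), LOC4350734 (1.69 and -4.07, on the dimmer of its probe sets, the brighter running the other way) and LOC4325318 (1.63 and -1.73). Below them came LOC4349807 (1.55 and -1.68), LOC4341132 (1.62 and -1.54), LOC4337879 (1.51 and -1.87), LOC4324459 (2.12 and -1.46) and LOC4342677 (2.66 and -1.44). LOC4324459 was the brightest gene of this direction, with 13.92 and 14.03 in stressed and 11.82 and 11.90 in watered Nootripathu roots, and 11.22 and 11.38 in stressed and 12.86 and 12.67 in watered IR20 roots. LOC4336795 (mean signal 11.3) and CESA4 were the next brightest.

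In the opposite direction, SWEET11 (LOC4346153) was the single named gene. It encodes a sucrose transporter of the SWEET family, known in rice as Xa13 for its part in bacterial blight and for its role in pollen and grain. The gene was dim, with 4.27 and 4.54 in stressed and 5.82 and 5.04 in watered Nootripathu roots, and 4.90 and 5.40 in stressed and 3.85 and 3.99 in watered IR20 roots. Its differences were -1.02 ± 0.26 in Nootripathu and 1.23 ± 0.26 in IR20, close to the size rule, and leaving out any of 3 arrays (the first stressed or first watered Nootripathu array, or the second stressed IR20 array) took it out of the set. Of the other SWEET genes, SWEET14 had 0.24 in Nootripathu and fell by 2.72 in IR20, while SWEET12 rose by 4.96 in Nootripathu and 1.52 in IR20. SWEET15 rose in both cultivars too, by 4.57 and 3.12.

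Without SWEET11, the sugar transport and trehalose list had 9 of 33 genes that passed the test of the difference between the drought effects above 0 and 4 that passed below 0. SWEET11 also entered the defence list through its name Xa13, and without it 9 and 13 of 57 genes there passed above and below 0. For the heat shock list the numbers that passed were 4 and 10 of 44, and for transcription factors, which hold C3H9, 49 and 38 of 249. Of all genes, 21.2% passed above 0 and 11.8% below. These 4 lists held a member each, and none of the lists holds a second member of the same direction apart from the cell wall list. Genes left out by name do not count as members here. The cell division list holds MCM3 and MCM5, which met the values of the first direction.

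The strongest gene of the second direction was LOC4331559, with nearly equal and opposite changes. It had 6.74 and 6.90 in stressed and 9.63 and 9.65 in watered Nootripathu roots, and 10.01 and 10.13 in stressed and 7.30 and 7.26 in watered IR20 roots. The differences were -2.82 ± 0.10, a 7.07-fold lower signal, and 2.79 ± 0.10, a 6.90-fold higher one. LOC4343216 was as symmetric, at -1.97 and 1.97, with 9.58 and 9.51 in stressed and 11.55 and 11.48 in watered Nootripathu roots and 11.27 and 11.40 in stressed and 9.38 and 9.34 in watered IR20 roots. In both genes the watered level of each cultivar was close to the stressed level of the other.

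LOC4344636 had 5.83 and 5.81 in stressed and 8.30 and 8.39 in watered Nootripathu roots. In IR20 its stressed arrays differed more, at 11.10 and 9.84, above 7.77 and 7.80 in watered roots, and the change there was 2.68 with both and 3.31 without the second stressed array. LOC4346629 had the largest drop in Nootripathu, with 4.43 and 4.98 in stressed against 8.28 and 8.19 in watered roots, beside 7.59 and 7.38 in stressed and 6.08 and 5.74 in watered IR20 roots. LOC4328109 had 6.44 and 6.46 in stressed and 8.23 and 8.13 in watered Nootripathu roots, and 8.89 and 9.17 in stressed and 5.80 and 6.15 in watered IR20 roots, the largest gain in IR20.

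Next in rank in this direction were LOC4352286 (-2.20 in Nootripathu and 2.39 in IR20), LOC4334644 (-1.92 and 2.81), LOC4332162 (-3.28 and 1.83), LOC4341299 (-1.88 and 1.43) and LOC4340368 (-1.45 and 1.42). They were followed by LOC4351769 (-1.76 and 1.41), LOC4350822 (-1.37 and 1.90), LOC4346529 (-2.04 and 1.34), LOC4332848 (-1.58 and 1.27) and LOC4332591 (-1.70 and 1.24). The brightest genes were LOC4333648 (-1.29 and 1.17, mean signal 12.9), LOC9271754 (-1.06 and 1.17, mean signal 11.5) and LOC4351214 (-1.05 and 1.23, mean signal 11.4). Probe sets that may match several transcripts, those marked _s_at or _x_at, made up 37.5% of this direction (9 of 24 genes), against 10.8% of the first direction and 11.1% of all genes.

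The cultivars changed places. In 61 of the 65 genes of the first direction, watered Nootripathu roots had less signal than watered IR20 roots, by a median of -1.70 over the 65, and in all 65 stressed Nootripathu roots had more than stressed IR20 roots, by a median of 1.44. In 59 genes the order turned without overlap of any arrays, against 13.4% of all 22436 probe sets with 1 gene. Of the second direction, 22 of 24 genes were higher in watered Nootripathu than in watered IR20 (median 1.39 over the 24) and all 24 were lower under stress (median -2.17). All 22 turned without overlap, against 9.28% of all probe sets. Opposite changes of at least 1 favour such a turn by their construction, so these counts describe the genes only.

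**Figure D5:**
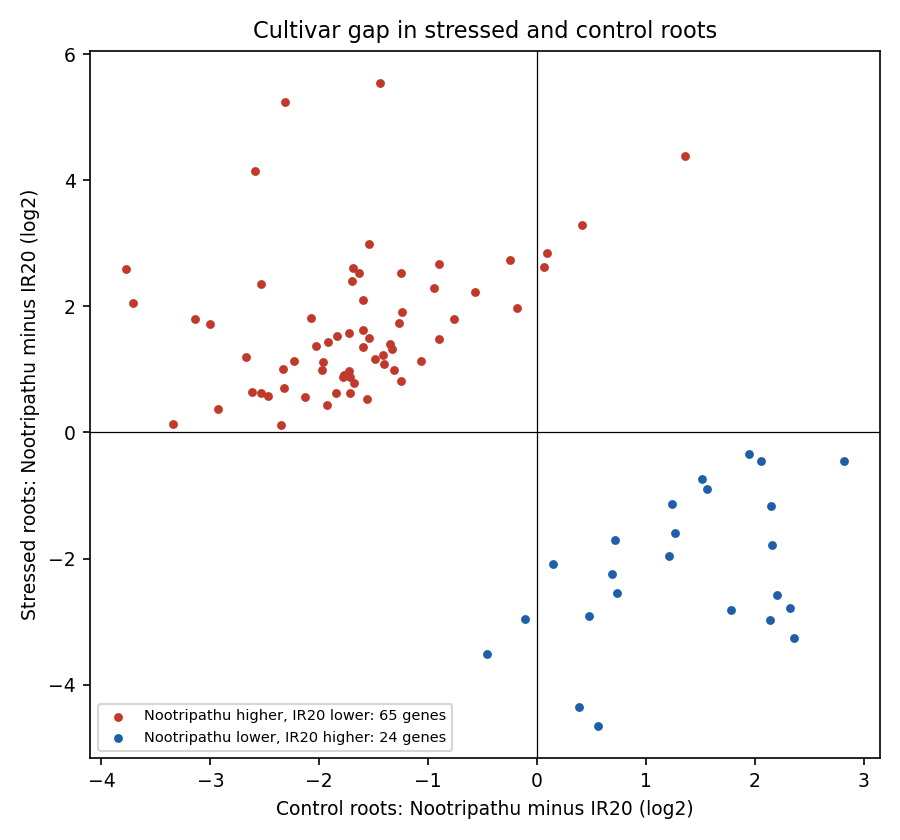
Nootripathu minus IR20 (log2) in stressed roots (vertical) against control roots (horizontal) for the 65 genes higher in Nootripathu and lower in IR20 under stress (red) and the 24 genes lower in Nootripathu and higher in IR20 (blue). Red points lie above 0 in stressed roots and all but 4 lie below 0 in control roots, and blue points lie below 0 in stressed roots and all but 2 lie above 0 in control roots.

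The exceptions are genes whose cultivars started at a similar level or already in the later order. LOC4340083 was higher in Nootripathu when watered, by 1.36, and the gap widened to 4.38 under stress. DCL2A and LOC4341417 began at nearly equal levels, with gaps of 0.07 and 0.09. In the second direction LOC4340877 and LOC4332848 were lower in watered Nootripathu, with gaps of -0.46 and -0.11. At the other end, LOC4328951 had a gap of -3.35 when watered and of 0.14 under stress, so its cultivars nearly met under stress.

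Several member genes are read by more than 1 probe set, and these did not always agree. In the first direction 44 genes had a single probe set and the other 21 had 28 further probe sets, of which 12 had the same pair of signs, 8 of them without overlap of stress and control arrays, and 4 of these met the size rule too. In the second direction 7 genes had 8 further probe sets, of which 6 had the same signs and 5 were free of overlap. The genes with 2 member probe sets were LOC4337229, LOC4325318, LOC4346676 and LOC4326208. In 5 probe sets of 3 genes the change was at least 1 in both cultivars and ran the same way. All 3 further probe sets of LOC4340083 were lower in both, by -2.45 to -3.07 in Nootripathu and -3.27 to -5.46 in IR20, although its member probe set gave 1.77 and -1.25. Further probe sets of LOC4324826 and LOC4325994 were higher in both cultivars. Of the further probe sets, 11 of 8 genes in the first direction were brighter than the member probe set, and 1 of them, of LOC4325142, had the same signs. In the second direction 3 were brighter and 2 had the same signs. The brighter probe set of LOC4350734 gave -0.58 in Nootripathu and 0.94 in IR20, against the direction of its member. Those of LOC4339814 gave 1.76 and 0.45, of LOC4351389 0.55 and 0.43, of LOC4329989 -0.10 and 0.23, and of LOC4340877 -0.23 and -0.02. Those of LOC4329181 gave 0.48 and 0.16, and -0.01 and -0.06. Apart from LOC4325142, the 8 genes of the first direction with a brighter probe set, DCL2A and LOC4340083 among them, thus showed the opposite change on a dimmer probe set and not on a brighter one.

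Between replicates the signs were kept more often than the size. Chosen on the first replicates alone, without regard to spread, 79 genes met the size rule in the first direction, and on the second replicates all 79 had the same signs and 47 again reached 1 in both cultivars. Chosen on the second replicates, 75 genes met it, and on the first replicates 69 had the same signs and 47 reached 1. In the second direction, 30 genes chosen on the first replicates all had the same signs on the second, and 18 reached 1, and 20 chosen on the second all had the same signs on the first, and 18 reached 1. The choices share arrays with the rule above and are given as values.

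Leaving out 1 array at a time kept 44 of the 65 and 19 of the 24 genes in every one of 8 repeats. Without the second stressed IR20 array, 63 of the 65 genes and 23 of the 24 stayed and 25 and 3 others joined. The median change in IR20 was then -1.74 in the first direction and 1.49 in the second. Without the first stressed IR20 array, 12 of the 65 genes dropped out and 9 others joined, and the median change of the 65 in IR20 was -1.49. In IR20, LOC4329181 rested on the second stressed array. It had 6.66 and 6.99 in stressed and 5.70 and 5.89 in watered Nootripathu roots, and 5.93 and 3.76 in stressed and 5.99 and 5.96 in watered IR20 roots, and limma called it in neither cultivar. Without that array its difference in IR20 was -0.04. Of the 65 genes, the remaining 63 after LOC4329181 and DCL2A passed limma in both cultivars, as did all 24, which restates the rule's own arrays.

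The limit of 1 cuts through a continuum. Just inside it in the first direction were LOC4345805 (1.02 in Nootripathu and -1.95 in IR20), LOC4335786 (1.02 and -1.44) and LOC4339570 (1.64 and -1.02), and just outside were LOC9268385 (1.59 and -0.99), LOC107278587 (1.68 and -0.99) and LOC4338923 (0.99 and -1.55). Just inside in the second direction were SWEET11, LOC4341458 (-1.04 and 2.25) and LOC4351214, and just outside were LOC4336618 (-0.97 and 1.00), LOC9266983 (-1.88 and 0.96) and LOC4347977 (-1.18 and 0.96).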

How the data were processed

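Root RNA, 2 ug per sample, was labelled and hybridised to Affymetrix rice arrays. The deposited values are log2 signals; the authors used RMA in Affymetrix Expression Console 3.0, per the submitters' processing notes; scanner files were not used here. Of 57381 probe sets, 123 controls were left out, and 22436 had exactly 1 gene in the array annotation (17905 genes). Names came from that annotation and from RefSeq synonyms; RefSeq's gene order was used for neighbours only, and roles of unnamed genes, sequences and coordinates were not used here. Depth has no meaning for arrays, and 2 per group limits the precision. The replicates' independence is not described further, so p-values measure only the spread between these samples.

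The members were found by rule in Python 3.11.15. Standard errors and the tests of relatives came from limma 3.58.1 in R 4.3.3, fitting a mean for each group (residual degrees of freedom 4), with Benjamini-Hochberg adjustment over 57258 probe sets at 0.05. The brightest probe set stood for a gene in lists. The members, the 30 gene lists (by symbol) and the tests were chosen with earlier results of these data known. All gene families read beside the named genes were picked once the members were known. Named in the text are members with a name, the 15 largest per direction by the smaller change, those nearest the limit and the 3 brightest; other members singled out were chosen after their values were seen. The rule and the fit were tested on simulated data. The replicate numbers did not pair the samples: correlations of same-numbered deviations between groups ran from -0.01 to 0.21.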

Additional observations from a re-analysis of the deposited data

Results flagged for a closer look

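The opposite directions of drought response in the cultivars were marked because every stressed array of one cultivar moved one way and every stressed array of the other moved the opposite way. This holds by the rule that chose the 65 genes higher in Nootripathu and lower in IR20 and the 24 genes lower in Nootripathu and higher in IR20, and the difference was not tested for them. For the named genes the drought effect in Nootripathu exceeded that in IR20 by 4.90 for RPA32A, 4.72 for BC1, 3.89 for GT43A, 3.78 for LOGL10, 2.65 for CESA4, 2.55 for DCL2A, 2.49 for BGLU8, 2.38 for HSFC1A and 2.36 for C3H9 on the log2 scale. For SWEET11 it was -2.25. With 2 arrays in a group, no group was large enough for a check of single outlying samples.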

How the results depend on the processing

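The count of genes higher in Nootripathu and lower in IR20 was 65, and that of the opposite direction 24. Both stayed within 1.5 times of these values under median centring, renewed quantile normalisation, removal of the dimmest 40% of probe sets, overlap allowed, probe sets with several genes kept, limma's threshold added and choice on the first or the second replicates alone. Leaving out 1 array gave 62 to 88 and 22 to 28. Scaling to the spike-ins gave 25 and 38 genes, of which 11 and 10 were among the main sets, because it lowers all stressed arrays; the medians of the main members became 0.43 and -2.53 in Nootripathu and -2.19 and 0.82 in IR20. Without _s_at and _x_at probe sets 15 genes of the second direction were left. A minimum of 1.5 on the log2 scale gave 13 and 8 genes, and one of 1.5-fold gave 265 and 96. The limma test of the difference between drought effects called 11204 probe sets, 3228 after spike-in scaling and 6509 to 14153 with 1 array left out. That of the effect in Nootripathu called 18267, or 43988 after spike-in scaling (1473 higher and 42515 lower) and 13116 to 21265 with 1 array left out, and that in IR20 called 21807 (12000 higher and 9807 lower), or 16771 after spike-in scaling (2050 higher and 14721 lower) and 16233 to 22335 with 1 array left out. With the replicate block these were 11251, 18490 and 21878, and the block left the members' differences as they were. For the 47 genes named by rule, 111 recomputed differences moved by more than the replicate SD. Of these, 91 were under spike-in scaling, 12 under renewed quantile normalisation and 8 under median centring. Only these settings could move a difference so far. Leaving out 1 array shifts it by no more than that SD by construction, and removing probe sets or adding the block leaves it unchanged. The 1292 recomputed differences in all are therefore no measure of stability. The largest move was 0.89, too little to turn the sign of a change of at least 1. The number of arrays, 2 per group, limits the precision, and a gene that ends near the array's lowest signal, 2.53, may have changed by more than its value shows.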
